A study of Mus musculus with 6 samples.

Results

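The genes of proximal T cell receptor signalling were followed here, that is the receptor chains, the kinases that act on them and the adaptors and effectors gathered around the membrane scaffold. The set has 39 genes. Its members are the 69 array probes, control spots left aside, that carry 1 of these 39 gene names, out of 41174 probes on the array. Of the 39 genes, 37 could be tested among 19225 genes in all. The samples were resting CD4 T cells from spleens of C57BL/6J mice, either treated with vasoactive intestinal peptide (VIP) or left untreated. CD4 T cells is the wording of the source names, while the sample titles say only resting splenocytes. VIP is a neuropeptide whose receptors on lymphocytes raise cyclic AMP. A VIP-treated sample and its untreated partner, which share a biological replicate number, were hybridised together on each of 6 Agilent 2-colour arrays, giving 6 samples per treatment. Males and females 6 to 32 weeks old were used, each sample pooled 5 to 10 spleens, and CD4 cells were drawn out with magnetic beads after red cells were lysed. Neither the VIP dose nor the treatment time is stated in the labels. A pooled bulk sample cannot tell fewer cells of a type from less RNA per cell, and CD4 beads also take up other cells that carry CD4.

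When the T cell receptor meets its ligand, the kinase Lck, held at the coreceptors, phosphorylates tyrosines in the tails of the CD3 and zeta chains. Zap70 docks there and phosphorylates the scaffold Lat and the adaptor Slp-76 (Lcp2), which assemble phospholipase C gamma, Tec family kinases, Vav proteins and the Ras activators Sos and Rasgrp1. Csk, the Dok proteins and the Slap adaptors (Sla, Sla2) restrain these steps. In resting T cells, the state sampled here, these proteins are already in place, and cyclic AMP is known to act on the pathway through protein kinase A and Csk. The arrays measured transcripts, not phosphorylation.

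Sequences are shown for the Tec gene, the 1 gene of the set that fell and the only called member with more than 1 probe, and for the zeta chain gene Cd247, whose probes gave unequal values. Each is a probe of 60 bases, as the scanner files give it, 5′ to 3′ along the transcript strand. In the Tec probe A_52_P672761 the capitals mark the codons of the Asp-Phe-Gly motif that protein kinases share, in the reading frame of the probe that has no stop. In the Cd247 probe A_52_P173555 the capitals mark 2 tyrosine-x-x-leucine pairs, which together form the kind of phosphorylation motif that Zap70 binds. The letters GATTTTGGA occur, on either strand and with no overlap between motifs counted, in 0.0826% of the 41174 probes, and TACAATGAGCTC and TATGACGTCTTG in 0.00243% each, which is this probe alone. No letters are capitalised in the Tec probe A_51_P467505.
Tec A_51_P467505: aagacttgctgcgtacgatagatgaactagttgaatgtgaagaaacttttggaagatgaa
Tec A_52_P672761: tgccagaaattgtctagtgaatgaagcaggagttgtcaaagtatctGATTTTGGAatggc
Cd247 A_52_P173555: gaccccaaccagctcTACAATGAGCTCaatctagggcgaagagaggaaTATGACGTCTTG
The Tec probes lie on the minus strand of mm9 at chr5:73147534-73147593 and chr5:73151585-73151644. The Cd247 probe spans 1019 bases of the plus strand at chr1:167786567-167787585, longer than its 60 bases, so it crosses a splice junction. Exon or UTR is not stated because no mm9 annotation was used here. The Sos2 probe lies at chr12:70684873-70684932 on the minus strand and the Dok2 probe at chr14:71178194-71178253 on the plus strand.

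Transcripts of the set were readily measured. All 37 tested members had a probe well above background in all 12 samples, as did 68 of the 69 probes. The exception was the dimmer Vav3 probe, which was well above background in 1 VIP-treated sample and in no untreated sample. Cd2 and Sit1 were not tested, because spots that the scanner software marked as outliers left 4 arrays for each. Only 1 of these had VIP-treated RNA in the dye Cy5 for Cd2, and only 1 had it in Cy3 for Sit1. A probe had to be measured on 2 arrays of each dye orientation. Among the tested members 29 were measured on all 6 arrays and 8 on 5 arrays.

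Few of these transcripts differed between VIP-treated and untreated cells, and those by little. Tec was lower and Sos2 and Dok2 were higher with VIP, at a Benjamini-Hochberg adjusted p under 0.05 from a limma fit over all genes. These are 3 of 37 members, or 8.11%. The same rule called 3.09% of all genes tested, 1.72% as higher and 1.37% as lower with VIP, and the difference between these shares was not tested. The members were chosen with earlier results of these data known, so their shares here and below are not independent evidence. Of the members, 17 had a positive and 20 a negative log2 ratio. The median log2 ratio of VIP over untreated was -0.0032 for the members and -0.0048 for all genes, and the median size of the ratio, without its sign, was 0.071 for the members and 0.048 for all genes. All 37 tested members had a probe well above background in every sample, while 14543 of the 19225 genes did. Members and all genes are therefore not like for like. An unadjusted p under 0.05 was found for 9 members, 5 with higher and 4 with lower levels with VIP, or 24.3%, where 16.7% of all genes had 1. The standard error of a member's log2 ratio ran from 0.040 to 0.099, with a median of 0.048. Of the 34 members that were not called, 31 had a 95% interval inside ±0.32, a 1.25-fold change in either direction. This is 91.2%, beside 96.1% of all genes that were not called.

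**Figure D1:**
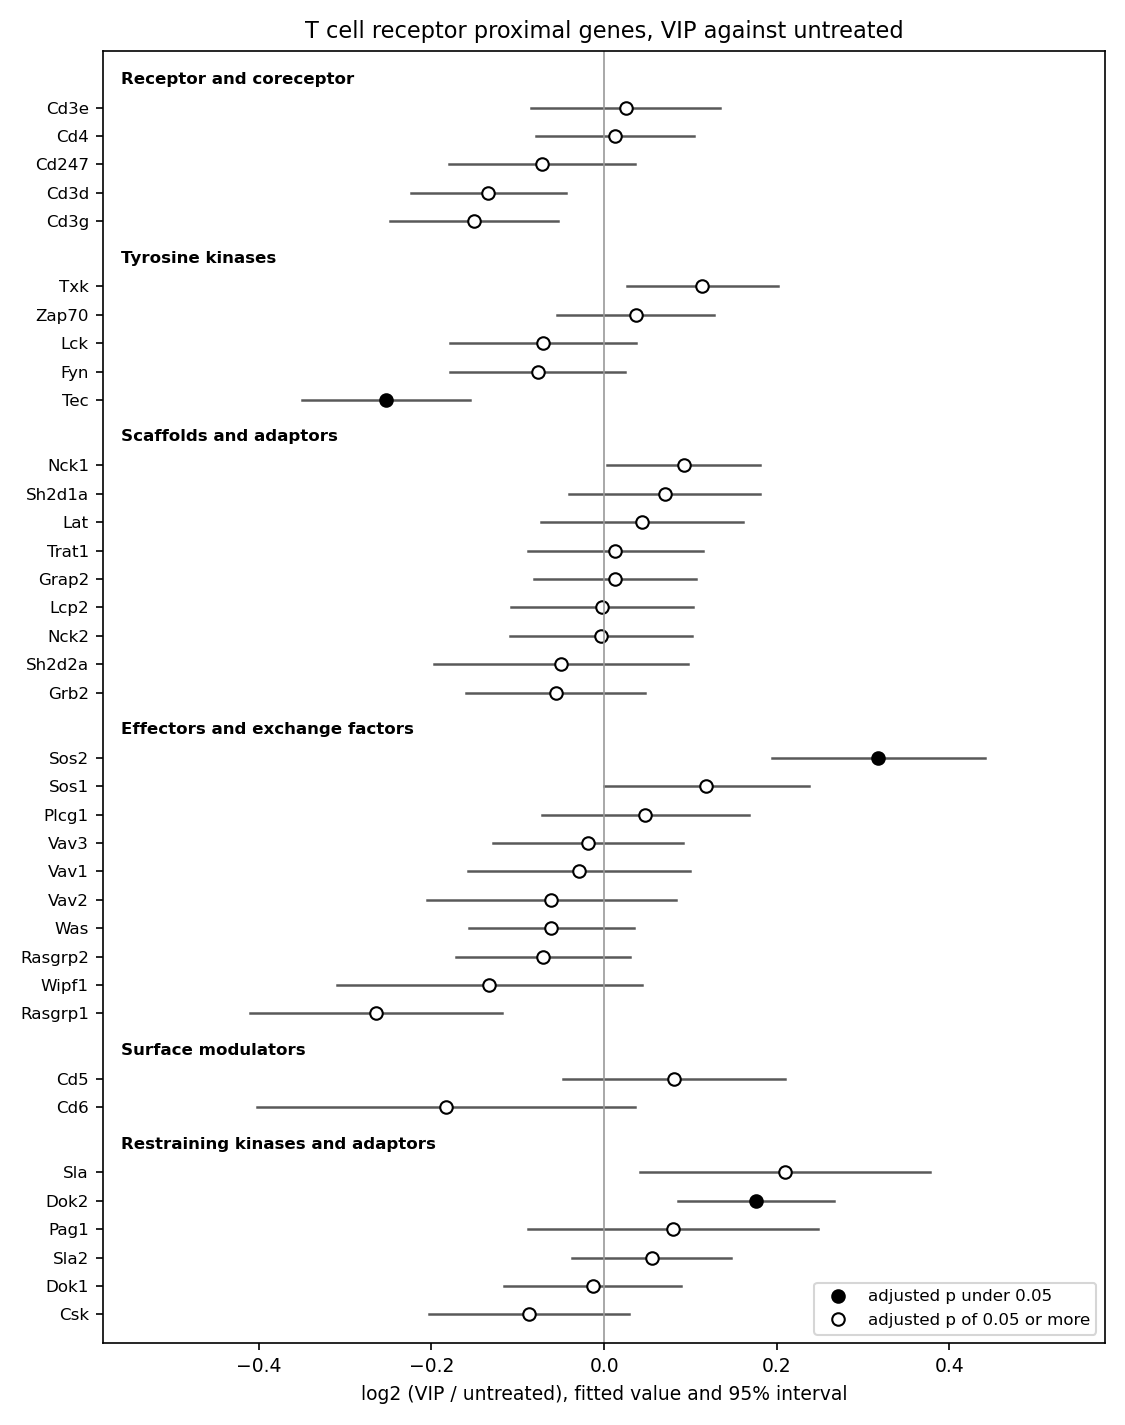
Fitted log2 ratio of VIP over untreated (points) with its 95% interval (lines) for the 37 tested members, grouped by role and sorted within each group. Filled points are the 3 members with an adjusted p under 0.05, Tec below 0 and Sos2 and Dok2 above it; open points are the other 34, of which Rasgrp1 lies lowest at -0.26.

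Before the members are taken in turn, some facts of the libraries bear on them. Each slide held 2 arrays, 1 of each dye orientation, so the slides are batches that hold both treatments, and values within slides are given for the called members. The dye also left a mark: the median size of the dye effect on the log2 scale was 0.088 for the members and 0.070 for all genes. The dye effect was larger than the VIP effect for 19 of the 37 members. Transcripts that mark sex were unmatched between the 2 samples of an array on replicates 3 and 6. On replicate 3 the log2 ratio of VIP over untreated was -6.12 for Xist and 1.95 for Eif2s3y, and on replicate 6 it was 2.03 and -4.80. On the other 4 arrays it stayed between -0.083 and 0.34 for Xist. Results are therefore also given without these 2 arrays. The CD4 T cell markers Cd4, Cd3e, Cd3g, Cd3d, Cd28, Thy1 and Cd5 were well above background in all 12 samples. Among these 7 markers Thy1 fell by 0.29 (adjusted p = 0.0149 by limma) and no other passed the test. Markers of other cells on the array were also well above background in all 12 samples, for 2 of 2 CD8 T cell and 7 of 8 B cell genes. The same held for 6 of 7 macrophage and monocyte, 3 of 3 neutrophil, 3 of 5 dendritic and 3 of 5 NK cell genes. It held for 2 of 3 erythroid and 1 of 4 platelet genes. Of 34 markers tested for CD8 T, B, myeloid, dendritic, NK, erythroid and platelet cells, none was called. The unadjusted p was under 0.05 for 3 of them, with log2 ratios of 0.18 for the monocyte gene Cd14, 0.13 for Cd8b1 and -0.12 for the platelet gene Itga2b. The summed linear intensity of 7 B cell markers ran from 7926 to 15676 in VIP-treated samples and from 8769 to 16509 in untreated samples, and that of the CD8 genes Cd8a and Cd8b1 from 4711 to 8934 in VIP-treated and from 3903 to 7189 in untreated samples. The part of these differences between samples in the results below was not tested.

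The receptor chains and the coreceptor came first in the pathway, and none of the 5 genes was called. The CD3 gamma chain gene Cd3g had log2 intensities with a lowest value of 13.60, a median of 14.21 and a highest of 14.56 in VIP-treated samples, against 13.93, 14.35 and 14.61 in untreated samples. The delta chain gene Cd3d had 15.20, 15.58 and 16.03 in VIP-treated samples, against 15.33, 15.68 and 16.23 in untreated samples. The groups overlap for both genes, since arrays differ from each other by more than the pairs do, but within its pair the VIP-treated sample was the lower on 6 of 6 arrays for each. The log2 ratio was -0.15 for Cd3g (95% interval -0.25 to -0.054, adjusted p = 0.103 by limma) and -0.13 for Cd3d (-0.22 to -0.044, adjusted p = 0.116). The largest step for Cd3g was on replicate 1, at -0.34, and without that array its ratio was -0.12. For Cd3d the pairs on replicates 1 and 5 were all but level, at -0.0025 and -0.0067. Cd3e, which encodes the epsilon chain, stood at 0.025 (-0.085 to 0.135, adjusted p = 0.866, 5 arrays), and its second, dimmer probe at -0.0069. Cd4, the coreceptor gene, stood at 0.012 (-0.079 to 0.104, adjusted p = 0.925) and at -0.046 on its other probe.

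Cd247 encodes the zeta chain, which carries most of the receptor's phosphorylation motifs. Its brightest probe, which stands for the gene, gave a log2 ratio of -0.072 (-0.18 to 0.036, adjusted p = 0.512 by limma, 5 arrays). Without replicate 2 or 4 that probe no longer met the filters, and the next stood at -0.11 or -0.18. The other 3 probes all gave a lower value. The probe printed above gave -0.14 (± 0.047 SE, adjusted p = 0.159 by limma over all probes) and A_51_P431364 gave -0.13 (± 0.049 SE, limma adjusted p = 0.220). A_52_P198698, farthest along the plus strand at chr1:167807278-167807337, gave -0.26 (± 0.057 SE, adjusted p = 0.0453 by limma, 5 arrays). Its ratios on replicates 1, 2, 4, 5 and 6 were -0.25, -0.17, -0.23, -0.18 and -0.49, so the VIP-treated sample was lower in each pair measured. The 4 probes thus share a sign and differ in size, by 0.19 between the extremes. The test over all probes called 6 of the 65 member probes that passed the filters, or 9.23%, beside 2.88% of all probes. They were both Tec probes and this Cd247 probe, which were lower, and Sos2, Dok2 and a Grap2 probe, which were higher.

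Among the tyrosine kinases, 1 of 5 fell and the others did not pass the test. Tec encodes the kinase that gives the Tec family its name. Its log2 intensity in replicates 1 to 6 was 10.71, 10.49, 10.67, 10.44, 10.87 and 10.71 in VIP-treated samples, against 10.80, 11.00, 10.81, 10.70, 10.99 and 11.11 in untreated samples. The VIP-treated sample was the lower of its pair on 6 of 6 arrays, although the ranges of both groups overlap. The log2 ratio was -0.25 (± 0.044 SE, n = 6, 95% interval -0.35 to -0.155, adjusted p = 0.0127 by limma), a 1.19-fold lower level with VIP. The mean log2 intensity was 10.65 ± 0.16 in VIP-treated and 10.90 ± 0.15 in untreated samples (SD, n = 6 each). The 3 slides gave -0.30, -0.20 and -0.26. On the arrays with VIP in Cy5 the ratio lay between -0.14 and -0.089, and on those with VIP in Cy3 between -0.51 and -0.27, all below 0. The Tec probe that holds the kinase motif gave -0.24 (± 0.052 SE, adjusted p = 0.0373 by limma over all probes), with -0.29, -0.42, -0.32, -0.049, -0.20 and -0.155 on replicates 1 to 6. Both printed sequences thus gave nearly the same value. The call was lost without replicate 5 (log2 -0.25, adjusted p = 0.0629) and on the 4 arrays whose sex-linked transcripts matched (-0.24, adjusted p = 0.0812).

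Txk, the Tec family kinase also called Rlk, stood on the other side of 0, at 0.11 (0.026 to 0.20, adjusted p = 0.170 by limma). On the arrays with VIP in Cy5 its ratios were -0.18, -0.11 and -0.22, and on those with VIP in Cy3 they were 0.42, 0.39 and 0.36. The sign on an array thus followed the dye, and with the dye term taken out the ratio was above 0 on 6 of 6 arrays. A second Txk probe had the opposite dye effect, 0.23 where the first had -0.28, and gave 0.115 for VIP. The kinases that act first on the receptor showed smaller ratios. Lck stood at -0.071 (-0.18 to 0.036, adjusted p = 0.517 by limma), Fyn, its Src family relative, at -0.077 (-0.18 to 0.024, adjusted p = 0.446), and Zap70 at 0.037 (-0.054 to 0.13, adjusted p = 0.728). The sign of Lck also followed the dye, above 0 on the 3 arrays with VIP in Cy5 and below 0 on the 3 with VIP in Cy3. With the dye term taken out, Lck was below 0 on 4 of 6 arrays. Each of these intervals leaves out a change as large as 1.25-fold.

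**Figure D2:**
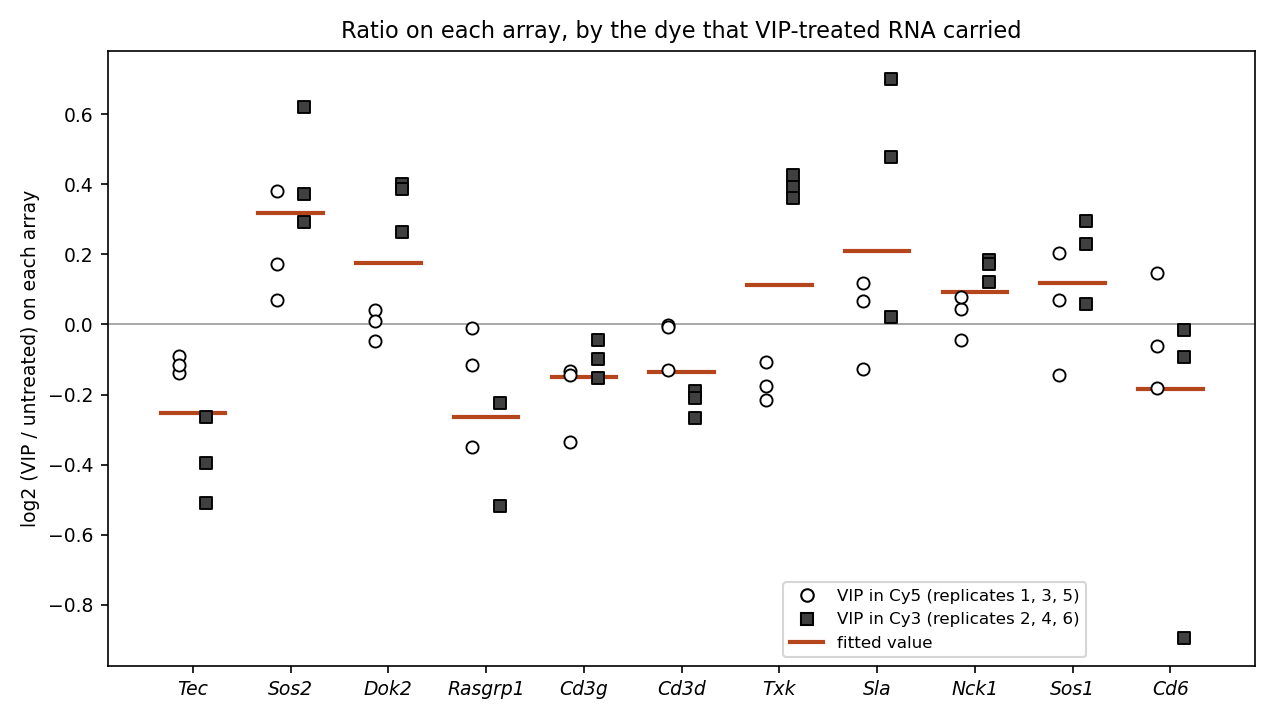
Log2 ratio of VIP over untreated on each array for the 3 called members and the 8 others of lowest p, in order of p. Open circles are the arrays with VIP in Cy5 and filled squares those with VIP in Cy3; bars are the fitted values. Tec lies below 0 and Sos2 above 0 on all 6 arrays, Txk splits by dye, and Cd6 has 1 array at -0.89.

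None of the 9 scaffolds and adaptors was called by its brightest probe, and their log2 ratios ran from -0.056 for Grb2, the adaptor that carries Sos, to 0.092 for Nck1, which links the receptor to the cytoskeleton. Lat, the membrane scaffold, stood at 0.044 (-0.073 to 0.16, adjusted p = 0.751 by limma, 5 arrays), and Lcp2, which encodes its partner Slp-76, at -0.0025 (-0.108 to 0.103, adjusted p = 0.988). Nck1 had an interval of 0.0037 to 0.18 (adjusted p = 0.276), and its other probes gave 0.075 and -0.049. Grap2 encodes Gads, the adaptor that joins Slp-76 to Lat, and its probes disagreed. The brightest gave 0.012, a dim probe 0.079, and A_52_P120612, at chr15:80479094-80479153, gave 0.22 (± 0.050 SE, adjusted p = 0.0439 by limma over all probes). The ratios of that probe were 0.32, 0.21, 0.048, 0.12, 0.29 and 0.33 on replicates 1 to 6, above 0 on each. Those of the brightest Grap2 probe were 0.30, 0.20 and 0.29 with VIP in Cy5, and -0.34, -0.16 and -0.22 with VIP in Cy3. Sh2d1a, which encodes the adaptor SAP, and Was, an actin regulator of the group below, are on the X chromosome. Their ratios were 0.070 and -0.061, and neither passed the test.

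The effectors and exchange factors held the largest rise and the lowest ratio of the set. Sos2, which encodes a guanine nucleotide exchange factor for Ras, had log2 intensities of 11.16, 11.65, 11.34, 11.44, 11.24 and 11.08 in VIP-treated samples 1 to 6, against 10.99, 11.03, 10.96, 11.07, 11.17 and 10.78 in untreated samples. The VIP-treated sample was the higher of its pair on 6 of 6 arrays, by 0.070 at least, on replicate 5, and by 0.62 at most, on replicate 2. The groups overlap, because the untreated sample of replicate 5 lay above the VIP-treated samples of replicates 1 and 6. The log2 ratio was 0.32 (± 0.056 SE, n = 6, 95% interval 0.19 to 0.44, adjusted p = 0.0136 by limma), a 1.25-fold higher level with VIP. Mean log2 intensities were 11.32 ± 0.21 in VIP-treated and 11.00 ± 0.13 in untreated samples (SD, n = 6 each). The slides gave 0.395, 0.38 and 0.18. Sos2 was called without each replicate in turn, with ratios from 0.27 to 0.35, and on the 4 arrays whose sex-linked transcripts matched (0.31, adjusted p = 0.0400). The call was lost with the scanner's processed signals (adjusted p = 0.157), the deposited values (0.150), an offset of 0 (0.0865), no dye term (0.0986) and no replicate block. Those settings also ended the calls of Tec and Dok2, and median centring ended both of these but not Sos2. Sos2 has a single probe on this array.

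Sos1, the close relative of Sos2, stood at 0.12 (-0.00060 to 0.24, adjusted p = 0.302 by limma) and at -0.048 on its other probe. Without replicate 1 its ratio was 0.078. Rasgrp1 encodes the exchange factor that answers to diacylglycerol and is the main Ras activator of T cells. Its log2 intensity on replicates 1 to 5 was 12.48, 12.35, 12.08, 12.07 and 12.41 in VIP-treated samples, against 12.48, 12.87, 12.43, 12.30 and 12.53 in untreated samples. The VIP-treated sample was lower on 5 of 5 arrays, by 0.0095 on replicate 1 and by 0.52 on replicate 2. The ratio of -0.26 (-0.41 to -0.12) was the lowest of all members but did not pass the test, at an adjusted p of 0.0634 by limma. Rasgrp1's other probe, measured on 6 arrays, gave -0.12 (adjusted p = 0.462 by limma over all probes). Leaving out replicate 2 or 4 left that dimmer probe alone within the filters, and the value was then -0.082 or -0.12. Rasgrp2 stood at -0.071 and Wipf1, whose product binds the Was protein, at -0.13 on 5 arrays that ran from -0.54 to 0.28. These extremes were on replicates 3 and 6, the arrays with unmatched sex-linked transcripts. Without replicate 3 the Wipf1 ratio was -0.075. Without replicate 4 its brightest probe no longer met the filters, and the dimmer probe then stood at -0.034. Measured on 6 arrays, that dimmer probe gave -0.055. The phospholipase gene Plcg1 stood at 0.048 and the 3 Vav genes, exchange factors for Rac, between -0.061 and -0.018, and none of these was called.

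**Figure D3:**
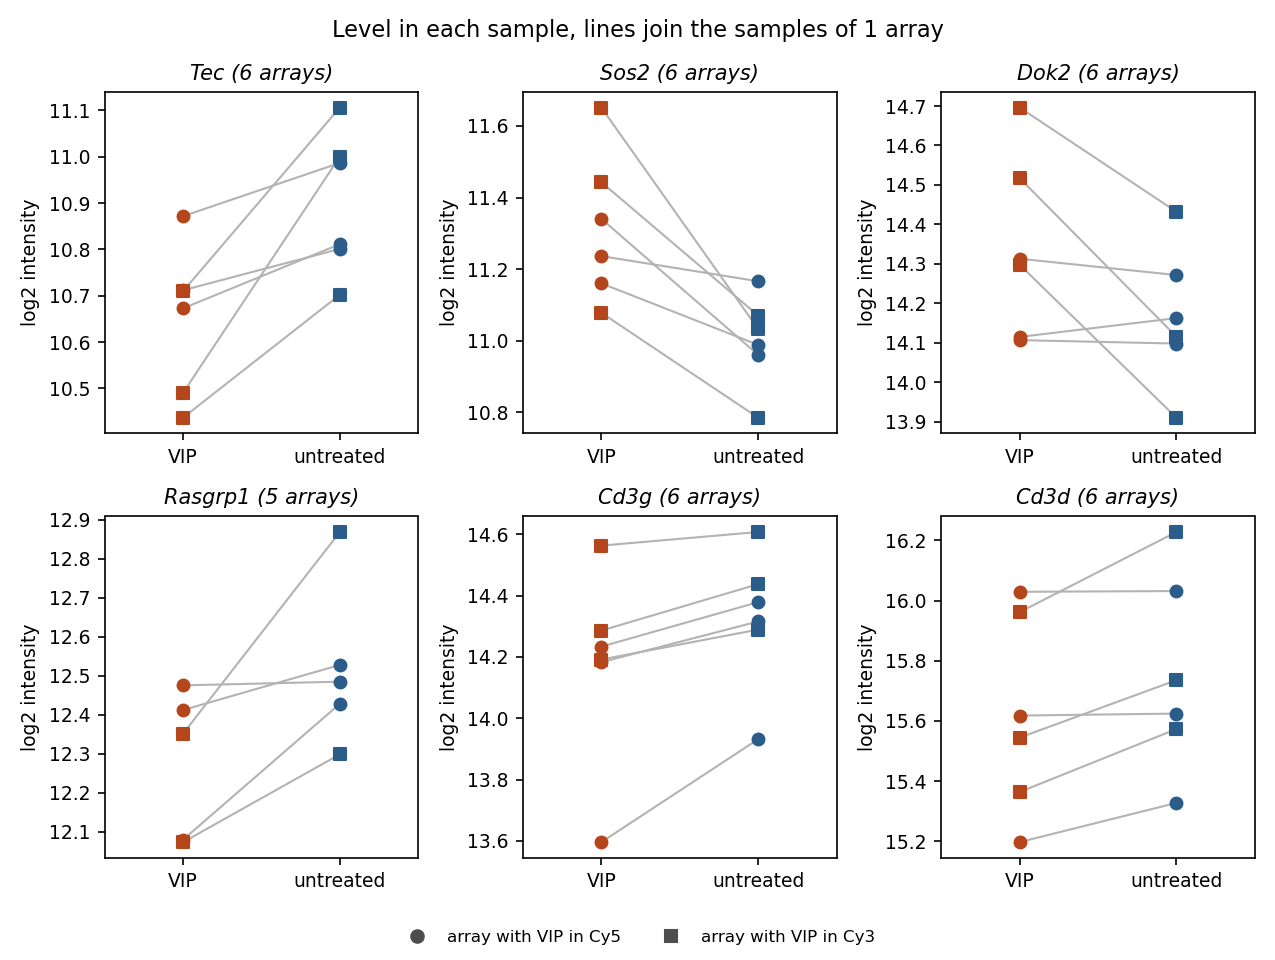
Log2 intensity of the 3 called members and of the 3 uncalled members of lowest p in each VIP-treated (left) and untreated (right) sample; each line joins the samples of 1 array, circles have VIP in Cy5 and squares VIP in Cy3. Vertical axes differ between genes and do not start at 0. Lines for Tec, Rasgrp1, Cd3g and Cd3d all run higher on the untreated side and those of Sos2 all higher on the VIP side, while the groups overlap in every panel.

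Of the surface molecules that tune the receptor, Cd5 stood at 0.081 and Cd6 at -0.18 (-0.40 to 0.036, adjusted p = 0.400 by limma). The value for Cd6 rested on replicate 6, an array with unmatched sex-linked transcripts. That array gave -0.89, while the other 5 lay between -0.18 and 0.15. Without replicate 6 Cd6 was at -0.043, and its second, dimmer probe gave 0.013. Cd2, an adhesion receptor of T cells, had ratios of -0.035, 0.40, 0.31 and 0.19 on replicates 2, 4, 5 and 6, the arrays on which its spot was not marked as an outlier. With marked spots kept, its ratio over 6 arrays was 0.27 (adjusted p = 0.0438 by limma). In that same setting Dok2 was no longer called (adjusted p = 0.0667), so the members that were higher with VIP were again 2, Sos2 and Cd2.

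Restraining kinases and adaptors formed the last group, with 1 of 6 tested members called, as higher with VIP. Dok2 encodes an adaptor that holds back Ras and the response to the receptor. Its log2 intensity was 14.31, 14.70, 14.11, 14.52, 14.12 and 14.30 in VIP-treated samples 1 to 6, against 14.27, 14.43, 14.10, 14.12, 14.16 and 13.91 in untreated samples. The VIP-treated sample was clearly higher on the arrays with VIP in Cy3, by 0.26, 0.40 and 0.39, and about level on the others, at 0.041, 0.0087 and -0.048. The log2 ratio with the dye term was 0.18 (± 0.041 SE, n = 6, 95% interval 0.085 to 0.27, adjusted p = 0.0473 by limma), a 1.13-fold higher level with VIP, and the slides gave 0.15, 0.21 and 0.17. Mean log2 intensities were 14.34 ± 0.23 in VIP-treated and 14.17 ± 0.18 in untreated samples (SD, n = 6 each). This call lies close to the threshold and was lost without replicate 1, 3, 4, 5 or 6, at adjusted p from 0.102 to 0.162, with slide as a fixed block (adjusted p = 0.0669), and on the 4 arrays whose sex-linked transcripts matched (adjusted p = 0.185).

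Sla encodes the Slap adaptor, which lowers receptor levels by way of the ubiquitin ligase Cbl. Its ratio was 0.21 (0.041 to 0.38, adjusted p = 0.191 by limma), and its second probe gave 0.22. The arrays were spread, with 0.48 and 0.70 on replicates 4 and 6, both with VIP in Cy3, and values from -0.13 to 0.12 on the other 4. With the dye term taken out, the ratio was above 0 on 5 of 6 arrays. It then ran from -0.17 on replicate 2 to 0.51 on replicate 6. Without replicate 2 Sla passed the test (0.30, adjusted p = 0.0317 by limma), and without replicate 6 its ratio was 0.13 (adjusted p = 0.439). On the 4 arrays whose sex-linked transcripts matched, which leave out replicate 6, the Sla ratio was 0.17 (adjusted p = 0.354 by limma). Csk, the kinase that switches off Lck, stood at -0.087, and Pag1, the membrane anchor of Csk, at 0.080, with 0.089 and 0.15 on its dimmer probes. Sla2 and Dok1 stood at 0.055 and -0.013, and none of these 4 genes passed the test. Sit1, a transmembrane adaptor, had ratios of 0.37, 0.32 and 0.28 on the arrays with VIP in Cy5 and -0.22 on replicate 4, the 1 array of the other orientation that measured it. With marked spots kept, its ratio was 0.027 (adjusted p = 0.869 by limma).

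Where a member had more than 1 kept probe the probes could be set against each other. This held for 23 members, of which 18 had 1 sign on all their probes and 5 had mixed signs. The gap between the highest and the lowest probe had a median of 0.058 and reached 0.21 for Grap2. Probes of 1 gene share the samples, so they are not independent of each other. They also need not read the same transcript, since the Cd247 and the Grap2 probes are each annotated to more than 1 transcript record. Of the 29 members measured on every array, 4 (13.8%) kept 1 sign on all 6, where 7.03% of all genes so measured did: Sos2 was above 0 throughout, and Tec, Cd3g and Cd3d below. Levels of the 2 treatments were free of overlap for 0 of the 37 members, beside 0.281% of all genes tested.

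**Figure D4:**
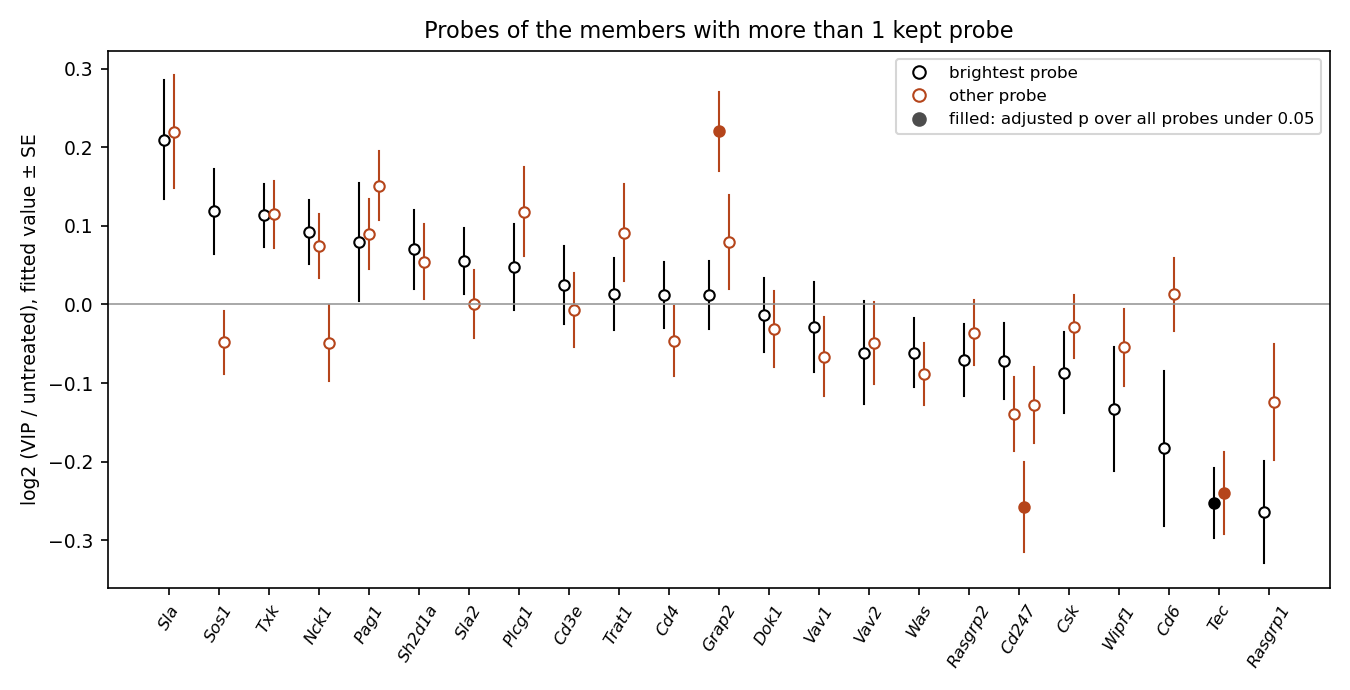
Fitted log2 ratio of VIP over untreated ± SE for every kept probe of the 23 members with more than 1. Black marks the brightest probe, which stands for the gene, and red the others; filled points have an adjusted p over all probes under 0.05. Both Tec probes lie together near -0.25, while the Cd247 and Grap2 probes spread.

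A further list of 51 genes acts in or near the same pathway and served to place the members. It holds other kinases, phosphatases, ubiquitin ligases, adaptors and GTPases, among others. Of its 47 tested genes, each read by its brightest probe, 4 rose, 3 fell and 40 did not pass the test. This is 14.9% called beside 3.09% of all genes. Among the 40 is Pak1, at 0.26 (adjusted p = 0.0776 by limma), whose dimmer probe gave 0.42 (adjusted p = 0.0206 by limma over all probes). The list was chosen with earlier results of these data known, so its share is not independent evidence. Its median log2 ratio was -0.0053 and the median size 0.064. Ptpn22 encodes a phosphatase that restrains Lck and Zap70. It rose by 0.51 (± 0.065 SE, adjusted p = 0.00272 by limma), with a lowest log2 intensity of 15.53, a median of 15.82 and a highest of 16.15 in VIP-treated samples, against 14.71, 15.47 and 15.86 in untreated samples. The ranges overlap, and the VIP-treated sample was the higher on 6 of 6 arrays. Fyb, whose product ADAP binds Slp-76, rose by 0.31, and its other probes gave 0.28 and 0.13. Ubash3a, a suppressor of receptor signalling, rose by 0.25 (0.093 on its dimmer probe), and Hcls1, which encodes an actin regulator, by 0.19. Tespa1, needed for receptor signalling in thymocytes, fell by 0.24, and Skap1, the binding partner of ADAP, fell by 0.26 on 5 arrays. Dgkz, a kinase that removes the diacylglycerol on which Rasgrp1 depends, fell by 0.17. The VIP-treated sample was on the same side of its pair on all arrays measured for each of these 7 except Hcls1, which was higher on 5 of 6. Hcls1 and Dgkz were called in none of the 6 fits that left out 1 replicate. Skap1 was called in none of the 4 such fits in which it met the filters. Tespa1 kept its call in 1 of 6 such fits and Ubash3a in 5 of 6. Ptpn22 and Fyb kept theirs in 6 of 6.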

How the data were processed

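Total RNA (250 ng per labelling, per the labels' protocols) was labelled with Cy3 or Cy5, with VIP-treated RNA in Cy5 on replicates 1, 3 and 5 and in Cy3 on replicates 2, 4 and 6. The deposited scanner tables give spot intensity from Agilent Feature Extraction 9.5.1.1, per the file headers, with probe positions on mm9. The authors' deposited table equals the scanner's log10 ratio, with its sign turned where VIP was in Cy3, to within 4.768e-06, and served as an alternative. Samples fall into groups by the labels.

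Mean signal minus median local background was corrected with normexp (offset 50) and loess-normalized within arrays in limma 3.58.1 (R 4.3.3). Control spots and outlier spots (1.93% to 8.96% per array) were left out. A probe was kept if well above background on 3 of 6 arrays in the channel of either treatment and measured on 2 arrays of each dye orientation. The kept probe of highest mean intensity stood for a gene, and gene names were updated through RefSeq for 60.3% of probes. Log2 ratios of VIP over untreated were fitted with limma and a dye term for each probe, moderated by empirical Bayes (4 residual and 6.54 prior degrees of freedom), so the fit is paired within arrays. Tests were 2-sided, with Benjamini-Hochberg adjustment over all genes. For the other probes of a gene and the count of member probes called, the adjustment ran over all kept probes. Errors are standard errors, except where marked SD. Levels are log2 intensities per channel after loess and Aquantile scaling, and levels of different probes were not compared. The number of arrays limits the precision. Median signal was 83.6 to 108 in Cy3 and 148 to 235 in Cy5, and 59.1% to 79.0% of spots were well above background. Called members were given in full, with the 8 uncalled members of lowest p, the receptor genes, Lck, Fyn, Zap70 and Lat, other members by examples, and up to 6 called genes per direction of the further list. A Cd247, a Grap2 and a Pak1 probe, Cd2 with outlier spots kept, and Thy1 were added after their values were seen. The members and lists were chosen with earlier results of these data known. Alternatives changed the background correction, normalization, dye term, slide block, pairing, probe filter, probe choice, outlier spots, source table and arrays.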

Additional observations from a re-analysis of the deposited data

Results flagged for a closer look

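The ratio of 1 array stood far from the others for 4 members, where chance alone sets 1 value apart in about 1 of 20 such groups. That rate is for values that differ by chance alone, whereas these ratios still held the dye effect. The share over all genes is not given, so the 4 are not read as an excess. For Cd6 it was replicate 6, at -0.89 on the log2 scale of VIP over untreated, with the other 5 arrays between -0.18 and 0.15. Replicate 6 is also an array with unmatched sex-linked transcripts, and the part of that mismatch in this value was not tested. For Cd3g it was replicate 1, at -0.34, with the others between -0.15 and -0.044, so all 6 arrays share a sign. For the phospholipase gene Plcg1 it was replicate 4, at 0.32, with the others between -0.10 and 0.047. For Sit1, measured on 4 arrays, it was replicate 4, at -0.22, with the others between 0.28 and 0.37, and that array is also the only 1 of the 4 with VIP in Cy3.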

How the results depend on the processing

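The members called higher and lower with VIP (2 and 1) became 0 and 0 with the scanner's processed signals, the deposited values, an offset of 0, no dye term, and the 12 channels as separate samples with no replicate block. They were 1 and 0 with median centring and on the 4 arrays whose sex-linked transcripts matched, a setting chosen after seeing the data, and 1 was higher with slide as a fixed block, where Dok2 was no longer called. Leaving out 1 replicate at a time gave 1 to 3 members higher and 0 to 1 lower. For the further list (4 and 3), the same settings gave 0 and 0 with processed signals, deposited values, no dye term and no replicate block, and 2 and 0 with offset 0. It had 0 lower with median centring and with outlier spots kept, and 1 lower on the matched arrays. Leaving out replicates gave 2 to 4 higher and 0 to 1 lower. Over all genes (331 and 263), 29 were higher and 9 lower with processed signals, 31 and 10 with deposited values, 88 and 45 with offset 0, and 210 and 98 with median centring. There were 87 and 37 with no dye term, 4 and 1 with no replicate block, and 204 and 120 on the matched arrays. With outlier spots kept 149 were lower, and leaving out replicates gave 149 to 263 higher and 98 to 198 lower. The cause was not tested. Under these 19 alternatives Tec kept its sign, between -0.28 and -0.22, and was called in 11. Sos2, between 0.27 and 0.35, was called in 14, and Dok2, between 0.15 and 0.20, in 5. None of the 3 called members or of the 7 called genes of the further list changed sign. The design is paired by array, and the fit with no replicate block drops that pairing. The 37 tested members were well above background in all 12 samples.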
